A study of Homo sapiens with 6 samples.

Results

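Glycolysis and the pentose phosphate pathway were followed through 34 genes, which encode glucose and lactate transporters, the enzymes from glucose to lactate, the regulators of phosphofructokinase, the enzymes of the pentose branch, and a few enzymes on the glycogen and reverse routes. The genes were taken from a list of symbols and were found in the table by name, 34 of the 13345 genes it held. All 34 had a mean value of at least 10 and were among the 12723 genes tested. The messenger RNA came from OE19, an established cell line of human oesophageal adenocarcinoma. Negative control samples (n = 3) had received a negative control oligonucleotide made with locked nucleic acid, and inhibitor samples (n = 3) with one against the microRNA miR-451a. Per the study's methods, cells were moved to medium with charcoal-stripped serum before transfection, and 50 nM had been found best for the reagents. The time from transfection to the RNA of the sequenced samples is not stated there. The samples were numbered by 3 independent experiments on 1 cell line. The treatment text of the labels also describes irradiated and mock-irradiated cells, and which of these the sequenced cells were is not stated there. The comparison asked whether messenger RNAs of these enzymes changed when miR-451a was inhibited.

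Glycolysis splits glucose into pyruvate and yields ATP and NADH. Many tumour cells pass much of that pyruvate on to lactate even when oxygen is present, which returns NADH to NAD and sends lactate out of the cell. The pentose phosphate pathway leaves glycolysis at glucose phosphate, makes NADPH, which serves antioxidant defence and lipid synthesis, and makes ribose phosphate for nucleotides.

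In these samples many genes of the pathway stood high in the order of all genes, and no change with the inhibitor was detected. No gene of the 34 passed the limma test at an adjusted p of 0.05, and the adjusted p ranged from 0.899 to 0.994. No gene of the whole table passed either (0 of 12723, percent called 0). At an unadjusted limma p under 0.05 there were 0 of the 34 and 119 of all genes tested, a share of 0.935%. DESeq2 and edgeR on whole numbers recovered from the values likewise gave 0 of the 34 at an unadjusted p under 0.05, against 1.96% and 1.28% of all genes. With the inhibitor, 17 of the 34 were higher and 17 were lower, where 49.4% of all genes were higher. Their median log2 difference was -0.000609, beside -0.00345 for all genes tested.

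The samples as a whole set some limits on these values. The deposited values had been adjusted by the authors within each sample for gene length and GC content and then scaled between samples, which does not divide a value by the gene's length. In every sample 15 genes shared the highest value. Levels and ratios of different genes are therefore given on this adjusted scale, and are not amounts of messenger RNA. The adjusted counts summed to between 14084387 and 18726440 per sample. Inhibitor sample 3 stood apart: 16% of all genes in it departed by over 2-fold from the other 5 samples' median, against 2.04% to 4.16% in the other samples. The columnar epithelial markers that fit the label were all present (7 of 7, with EPCAM at 9271 to 15001), and their summed value was 139538 to 205059 in control and 151806 to 212433 in inhibitor samples. Squamous markers (3 of 4 in the table) summed to 176 to 203 in control and 43.6 to 221 in inhibitor samples, and mesenchymal markers (2 of 5) to 274 to 342 and 258 to 309.7. Markers of blood cells (1 of 6 in the table, summed value at most 35.4) and endothelium (1 of 3, at most 31.1) were low. The endothelial value of 31.1, of VWF, was in inhibitor sample 3, against at most 8.26 in the other samples. The lowest squamous sum was in the same sample, where KRT13 was 15.6 against 109 to 155 in the others. In bulk RNA, fewer cells of a type and less RNA per cell cannot be told apart. Nothing in the labels says more of the replicates than that the experiments were independent, and all p-values rest on these 6 samples or a part of them.

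Promoter sequences are shown for the 7 genes picked out by their values. For ENO2, PGM1 and PGM2 the values did not overlap between the groups, a pattern shown by 5.61% of all genes tested. TIGAR, FBP1, RPE and LDHA stood over 2-fold low in inhibitor sample 3. The sequences are RefSeq sequences of GRCh38.p14, 5′ to 3′, with each ACGTG on either strand in capitals. They run from 250 bases before to 50 bases after the gene's start. Where a gene had several entries, the first by position is shown. On the plus strand lie ENO2 (chr12:6914330-6914629), PGM1 (chr1:63593161-63593460), PGM2 (chr4:37826436-37826735), TIGAR (chr12:4320963-4321262), RPE (chr2:210002388-210002687) and LDHA (chr11:18394313-18394612). FBP1 lies on the minus strand (chr9:94639469-94639768).
ENO2: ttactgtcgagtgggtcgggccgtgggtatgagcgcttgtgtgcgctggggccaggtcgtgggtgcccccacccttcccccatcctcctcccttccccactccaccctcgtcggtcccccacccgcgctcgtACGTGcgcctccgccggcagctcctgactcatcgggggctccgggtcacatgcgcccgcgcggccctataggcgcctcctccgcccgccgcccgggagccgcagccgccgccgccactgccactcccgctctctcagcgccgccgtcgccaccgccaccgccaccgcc
PGM1: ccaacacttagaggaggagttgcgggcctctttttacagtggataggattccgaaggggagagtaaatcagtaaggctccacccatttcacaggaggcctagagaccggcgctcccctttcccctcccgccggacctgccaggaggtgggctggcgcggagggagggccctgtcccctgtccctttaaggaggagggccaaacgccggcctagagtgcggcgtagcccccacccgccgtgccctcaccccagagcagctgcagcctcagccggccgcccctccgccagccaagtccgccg
PGM2: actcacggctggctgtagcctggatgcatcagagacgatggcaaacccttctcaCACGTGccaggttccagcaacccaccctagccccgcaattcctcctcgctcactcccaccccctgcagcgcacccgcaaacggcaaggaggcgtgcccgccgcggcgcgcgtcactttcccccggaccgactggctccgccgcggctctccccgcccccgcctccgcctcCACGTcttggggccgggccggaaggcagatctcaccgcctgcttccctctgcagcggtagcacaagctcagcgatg
TIGAR: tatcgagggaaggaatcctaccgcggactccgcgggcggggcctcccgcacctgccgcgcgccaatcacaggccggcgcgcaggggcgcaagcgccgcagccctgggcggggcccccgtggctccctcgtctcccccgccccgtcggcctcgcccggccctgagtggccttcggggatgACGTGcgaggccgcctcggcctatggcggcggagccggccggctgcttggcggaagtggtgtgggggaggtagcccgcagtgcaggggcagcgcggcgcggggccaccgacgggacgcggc
FBP1: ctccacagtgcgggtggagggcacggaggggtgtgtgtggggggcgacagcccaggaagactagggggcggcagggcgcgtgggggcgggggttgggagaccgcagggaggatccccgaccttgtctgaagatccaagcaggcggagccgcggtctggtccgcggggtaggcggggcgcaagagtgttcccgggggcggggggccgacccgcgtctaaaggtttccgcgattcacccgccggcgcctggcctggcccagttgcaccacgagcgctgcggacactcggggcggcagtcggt
RPE: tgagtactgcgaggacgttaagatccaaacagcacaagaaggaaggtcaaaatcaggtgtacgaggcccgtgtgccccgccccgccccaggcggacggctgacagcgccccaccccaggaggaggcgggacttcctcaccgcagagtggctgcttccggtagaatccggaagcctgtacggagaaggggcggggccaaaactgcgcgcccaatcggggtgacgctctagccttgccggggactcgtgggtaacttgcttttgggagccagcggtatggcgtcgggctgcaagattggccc
LDHA: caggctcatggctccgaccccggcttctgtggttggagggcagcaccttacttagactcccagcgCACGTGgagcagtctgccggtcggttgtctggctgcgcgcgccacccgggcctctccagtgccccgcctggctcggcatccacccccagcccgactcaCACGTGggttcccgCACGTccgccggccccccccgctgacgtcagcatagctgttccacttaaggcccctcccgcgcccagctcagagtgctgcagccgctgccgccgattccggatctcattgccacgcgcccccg
ACGTG occurs once in the ENO2 and TIGAR windows, 3 times in that of PGM2 and 5 times in that of LDHA, counting both strands, and 0 times in those of PGM1, FBP1 and RPE. Among entries not shown, the second of LDHA holds 0, and the other PGM1 entries hold 1 and 0. CACGTG holds ACGTG on both strands, and each CACGTG is therefore counted for it on each strand. CACGTG occurs once in PGM2 and 2 times in LDHA. Of the 34 genes, 31 had a promoter entry, and 17 of the 31 held ACGTG in at least 1 entry. That count rises with the number of entries per gene, and the matching share of all genes was not computed. Over entries, 21 of 58 (36.2%) held ACGTG, beside 21.4% of all 35116 promoter entries of the same length. For CACGTG these shares were 12.1% and 7.26%. Some genes had several entries whose windows overlap, and each entry was counted. The difference between the shares was not tested. SLC2A3, PFKFB2 and SLC16A1 had no entry in the table. These are matches of letters only.

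The levels spanned from a mean value of 93.0 for PFKFB4 to 89154 for PKM. In the order of all genes in the table by mean value, 27 of the 34 lay above the 50th percentile and 15 above the 90th. The plot of levels by sample shows the order within each step of the pathway.

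**Figure D1:**
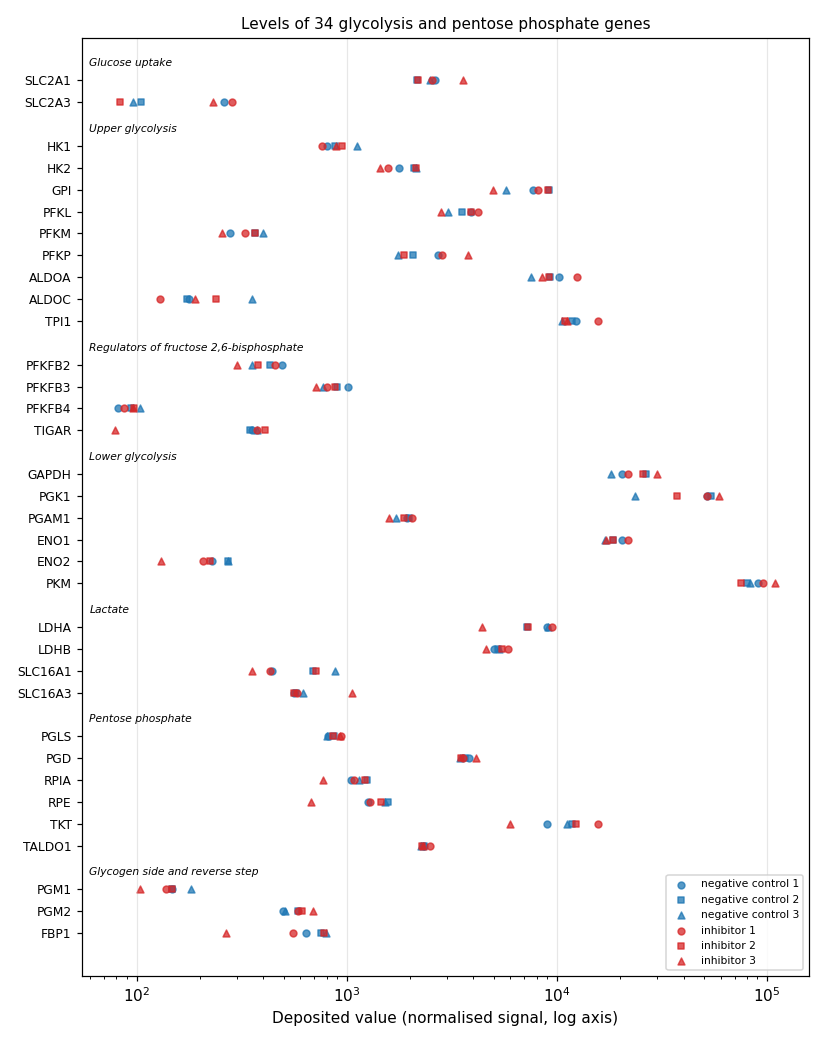
Deposited values (normalised signal, log axis) of the 34 genes in each of the 6 samples, grouped by role, with negative control samples in blue, inhibitor samples in red and 1 symbol shape per experiment. PKM lies between 75479 and 109616 and PFKFB4 between 81.2 and 103, and TIGAR in inhibitor sample 3 (78.9) lies far to the left of its other samples (346 to 408).

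Among the glucose transporter genes of the set, SLC2A1, which encodes the widely expressed GLUT1, had a higher value than SLC2A3 in every sample on this adjusted scale. Other transporter genes, such as SLC2A8 and SLC2A10, were not part of this comparison, and glucose uptake itself was not measured. SLC2A1 ranged from 2155 to 3561, and inhibitor sample 3 was the highest. SLC2A3, the high-affinity transporter GLUT3 (chr12:7919230-7936187, GRCh38), varied more than 3-fold between samples. Its values were 259, 105 and 96.1 in negative control samples 1, 2 and 3, and 284, 83.0 and 230.4 in the inhibitor samples in the same order. Negative control 1 and inhibitor samples 1 and 3 were high and the other 3 samples were low, so that the groups overlapped fully. The log2 difference was 0.35 ± 0.55 (SE; limma adjusted p 0.903). With 1 sample left out it ranged from 0.0068 (without inhibitor sample 1) to 0.89 (without inhibitor sample 2). SLC2A1 exceeded SLC2A3 by 8.98 to 26.2 times within samples.

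The upper part of glycolysis spends ATP to trap and split glucose, and here its genes differed little between the groups, with 4 higher and 5 lower and a median log2 difference of -0.04. HK1 and HK2 encode hexokinases, which phosphorylate glucose, and HK2 is the form often raised in tumours. HK2 (chr2:74834127-74893359) was 1767, 2086 and 2131 in control and 1571, 2130.3 and 1437 in inhibitor samples. Inhibitor samples 1 and 3 lay below all control samples, while inhibitor sample 2 lay within them. The group means were 1995 ± 199 and 1713 ± 368 (SD, n = 3 each), and the log2 difference was -0.24 ± 0.18 (SE; limma adjusted p 0.899), or -0.12 without inhibitor sample 3. HK2 exceeded HK1 by 1.61 to 2.38 times in every sample.

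Downstream of hexokinase, GPI converts glucose phosphate to fructose phosphate. GPI was 7691, 9204 and 5687 in control and 8147, 9102 and 4949 in inhibitor samples, so that both samples of experiment 3 were the lowest and both of experiment 2 the highest. The 3 phosphofructokinase genes encode the subunits of the committed step of glycolysis. PFKL, the liver form, ranged from 2792 to 4191 and PFKM, the muscle form, from 253 to 399. PFKP, the platelet form, ranged from 1755 to 2827 in 5 samples and was 3764 in inhibitor sample 3. PFKP was 0.479 to 0.696 times PFKL in those 5 samples and 1.35 times PFKL in inhibitor sample 3, so that the order of the subunits turned in 1 sample. The log2 difference of PFKP between the groups was 0.34 ± 0.28 (SE) and was 0.10 without inhibitor sample 3.

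The aldolases split fructose bisphosphate. ALDOA ranged from 7497 to 12426 and ALDOC, known best from brain, from 129 to 353, and ALDOA exceeded ALDOC by 21.2 to 96.3 times. TPI1, which interconverts the triose phosphates, ranged from 10603 to 15709.6. Inhibitor sample 1 was the highest for both ALDOA and TPI1, and the other 5 samples overlapped.

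Activity of phosphofructokinase is set by fructose 2,6-bisphosphate, which the PFKFB enzymes make and break and which the phosphatase TIGAR lowers. With the inhibitor 3 of these 4 genes were lower and PFKFB4 was higher by 0.01 on the log2 scale, and the smallest limma adjusted p was 0.899. PFKFB2 ranged from 299 to 492 and PFKFB3 from 709.9 to 1013. Both were lower with the inhibitor within each of the 3 experiments, with log2 differences of -0.18 ± 0.20 and -0.16 ± 0.15 (SE), while the values of the groups overlapped. Without inhibitor sample 3 the differences were -0.025 for PFKFB2 and -0.083 for PFKFB3. PFKFB3 exceeded PFKFB4 by 7.43 to 12.5 times.

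TIGAR (chr12:4321213-4360028), a p53 target that directs glucose towards the pentose branch, had the lowest log2 difference of the 34. Its values were 352, 346 and 373 in control and 374, 408 and 78.9 in inhibitor samples. Inhibitor sample 1 was at the level of negative control 3 and inhibitor sample 2 was above every control sample, while inhibitor sample 3 was 4.73-fold lower than the median of the other 5. The log2 difference was -0.64 ± 0.58 (SE), with a 95% interval of -1.99 to 0.72 and a limma adjusted p of 0.899. Without inhibitor sample 3 the log2 difference was 0.13, so that the direction of the TIGAR difference was set by 1 sample.

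The lower part of glycolysis, which recovers ATP and NADH, held the 4 highest genes of the set, PKM, PGK1, GAPDH and ENO1. PKM (chr15:72199029-72231591), pyruvate kinase of muscle and of most tumours, makes pyruvate and ATP. Its values were 90232, 80468 and 83268 in control and 95861, 75479 and 109616 in inhibitor samples, and the groups overlapped. In every sample PKM held the highest value of the table, which it shared with 14 other genes. The difference of PKM between samples is therefore that of the highest value of each sample, and the place of PKM among those genes is not resolved.

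PGK1 (chrX:78104248-78129295), phosphoglycerate kinase, was 51596, 54157 and 23520.3 in control and 52019, 37359 and 59317 in inhibitor samples. Negative control 3 was the lowest, and the other 5 samples overlapped. Genes were ranked by value within each sample and counted from the top in blocks of 15. PGK1 stood in block 2, 2 and 4 in control and in block 2, 3 and 2 in inhibitor samples. In negative control 1 the first values of the 4 highest blocks were 90232, 51675, 37710.5 and 29429.9. A move by 1 block near the top is therefore a large change in value. The log2 difference was 0.27 ± 0.42 (SE; limma adjusted p 0.903), and it was -0.12 without negative control 3.

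GAPDH (chr12:6534517-6538371), the dehydrogenase that makes NADH, was 20468, 26639 and 18008 in control and 21741, 25627 and 29941 in inhibitor samples. Inhibitor sample 3 was the highest and negative control 3 the lowest, with the other 4 between them in mixed order. GAPDH stood in block 5, 4 and 5 in control and in block 5, 4 and 4 in inhibitor samples. Block 4 began at 26778 in negative control 2, 25750 in inhibitor sample 2 and 30069.9 in inhibitor sample 3. Differences of GAPDH between those samples therefore follow the level of that block. The log2 difference of GAPDH was 0.25 ± 0.26 (SE; limma adjusted p 0.899), or 0.14 without inhibitor sample 3. ENO1 (chr1:8861000-8878686), the common enolase, was 20407, 18538 and 16903 in control and 21713, 18399 and 17078 in inhibitor samples. In both groups ENO1 was highest in experiment 1 and lowest in experiment 3, and the log2 difference was 0.03 ± 0.21 (SE). PGAM1, the mutase before enolase, ranged from 1588 to 2032. RefSeq lists pseudogenes by symbol for several of these genes, 65 for GAPDH, 13 for PGAM1, 5 for PKM, 4 each for TPI1 and ENO1 and 2 for PGK1. The sources used here do not give how reads shared with such copies were counted, and these values are uncertain to that extent.

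ENO2 (chr12:6914580-6923697), the enolase of neurons and neuroendocrine cells, was among the 3 genes whose values did not overlap between the groups, a pattern shown by 5.61% of all genes tested. ENO2 was 229, 272 and 273 in control and 206, 223 and 131 in inhibitor samples. The gap between the lowest control and the highest inhibitor sample was narrow, 229 against 223. The group means were 258 ± 25.2 and 187 ± 49.0 (SD, n = 3 each). The log2 difference was -0.50 ± 0.23 (SE), with a 95% interval of -1.04 to 0.05, an unadjusted limma p of 0.0677 and an adjusted p of 0.899. ENO2 was lower with the inhibitor in each experiment, by log2 values of -0.15, -0.29 and -1.06, and the difference was -0.26 without inhibitor sample 3. ENO1 exceeded ENO2 by 61.9 to 131 times in these values.

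Lactate dehydrogenase turns pyruvate into lactate, and monocarboxylate transporters carry lactate across the membrane. LDHA, the form prominent in fermenting cells, was 8994, 7228 and 9015 in control and 9475, 7271 and 4381 in inhibitor samples. Inhibitor sample 3 was 2.05-fold lower than the median of the other 5, and the log2 difference of -0.32 ± 0.29 (SE) became -0.01 without it. LDHB, the heart form, ranged only from 4598 to 5845. LDHA exceeded LDHB by at least 1.33 times in 5 samples and was 0.953 times LDHB in inhibitor sample 3.

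Of the lactate transporter genes, SLC16A3 stood apart in the same sample. SLC16A1, which encodes MCT1, was 440, 688 and 879 in control and 429, 709 and 353 in inhibitor samples. SLC16A3, which encodes MCT4, ranged from 559.6 to 616 in 5 samples and was 1061 in inhibitor sample 3. The ratio of SLC16A3 to SLC16A1 was 0.701 to 1.35 in 5 samples and 3.01 in inhibitor sample 3. The log2 differences were -0.43 ± 0.33 for SLC16A1 and 0.27 ± 0.25 for SLC16A3 (SE; limma adjusted p 0.899 for both). Without inhibitor sample 3 they were -0.22 and -0.03.

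The 6 pentose phosphate genes were evenly split, with 3 higher and 3 lower. PGLS and PGD act in the oxidative part that makes NADPH. PGLS ranged from 802 to 936 and PGD from 3439 to 4092, and both were highest in an inhibitor sample, with groups that overlapped. RPIA and RPE interconvert the pentose phosphates. RPE (chr2:210002638-210022260) was 1265, 1574 and 1518 in control and 1283, 1458 and 675 in inhibitor samples. Inhibitor samples 1 and 2 lay within the control range and inhibitor sample 3 was 2.16-fold lower than the median of the other 5. The means were 1453 ± 165 and 1139 ± 411 (SD, n = 3 each) and the log2 difference was -0.42 ± 0.28 (SE; limma adjusted p 0.899), or -0.08 without inhibitor sample 3. RPIA showed the same lowest sample, 772 against 1041 to 1246 in the others.

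TKT and TALDO1, transketolase and transaldolase, link pentoses back to glycolysis. TKT was 8999, 11824 and 11141 in control and 15729, 12344 and 5976 in inhibitor samples, so that the inhibitor group held both the highest and the lowest value. Its log2 difference of -0.01 ± 0.36 (SE) became 0.40 without inhibitor sample 3. TALDO1 was the steadiest of the 34, with values from 2252 to 2491 and a ratio of highest to lowest sample of 1.11.

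The remaining genes sit beside the main route. PGM1 and PGM2 are phosphoglucomutases, of which PGM1 links glucose phosphate to glycogen and PGM2 acts mainly on pentose phosphates. PGM1 (chr1:63593411-63660245) was 146.9, 147.4 and 180.9 in control and 138.3, 146.7 and 103.8 in inhibitor samples. PGM1 did not overlap between the groups, but by a gap of 146.9 against 146.7 that is far smaller than the spread within either group. The means were 158 ± 19.5 and 129.6 ± 22.8 (SD, n = 3 each), and PGM1 differed by -0.30 ± 0.21 on the log2 scale (SE; limma adjusted p 0.899), or -0.14 without inhibitor sample 3.

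PGM2 (chr4:37826686-37862937) was 498, 582 and 507 in control and 587, 614 and 687 in inhibitor samples. Every inhibitor sample was above every control sample, with 587 against 582 as the closest values. The means were 529 ± 46.1 and 629.6 ± 51.6 (SD, n = 3 each). The log2 difference was 0.25 ± 0.13 (SE), with a 95% interval of -0.06 to 0.56, an unadjusted limma p of 0.0964 and an adjusted p of 0.899. PGM2 was the only gene of the 3 whose groups did not overlap that was higher with the inhibitor. PGM2 was higher within each experiment, by log2 values of 0.24, 0.08 and 0.44, and the difference was 0.19 without inhibitor sample 3.

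FBP1 (chr9:94603133-94640263) encodes fructose bisphosphatase, which runs the phosphofructokinase step backwards in gluconeogenesis. FBP1 was 636, 755 and 792 in control and 553, 779 and 267 in inhibitor samples. Inhibitor sample 2 lay among the control samples, and inhibitor sample 3 was 2.83-fold lower than the median of the other 5. The means were 728 ± 81.5 and 533 ± 257 (SD, n = 3 each). The log2 difference was -0.57 ± 0.36 (SE), with a 95% interval of -1.42 to 0.27 and a limma adjusted p of 0.899, and it was -0.14 without inhibitor sample 3.

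**Figure D2:**
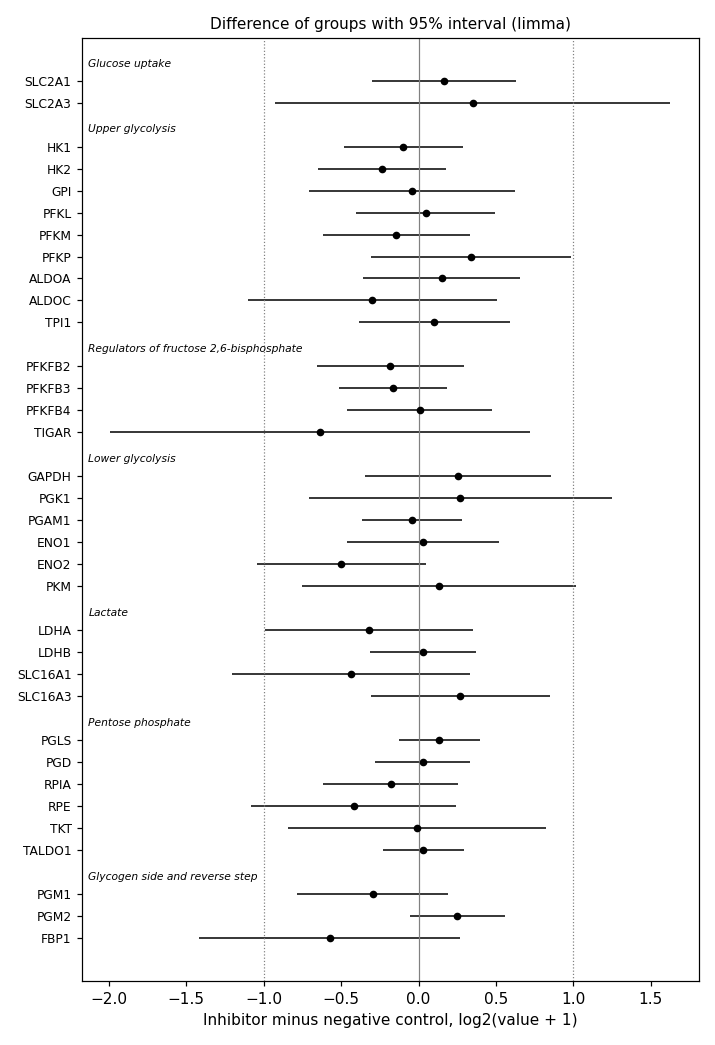
Difference of inhibitor from negative control on the log2(value + 1) scale for each of the 34 genes, with points for the limma estimate, lines for its 95% interval and dotted lines at a 2-fold change in either direction (n = 3 samples per group). Every interval includes 0, and 25 of the 34 lie wholly within the dotted lines.

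The precision of these differences can be read from their intervals. The half-width of the 95% interval ranged from 0.262 (PGLS) to 1.357 (TIGAR) on the log2 scale, with a median of 0.489, beside 0.486 for all genes tested. For 25 of the 34 (73.5%) the interval lay wholly within a 2-fold change either way, against 73.6% of all genes tested. For the other 9 a 2-fold change in at least 1 direction was not excluded by the interval. The estimates of all 34 lay within a 2-fold change, from -0.64 for TIGAR to 0.35 for SLC2A3. The values of 3 genes of the 34, ENO2, PGM1 and PGM2, did not overlap between the groups, beside 5.61% of all genes tested. The direction was the same in all 3 experiments for 5 of the 34, PFKFB2, PFKFB3, ENO2, PGM1 and PGM2, a share of 14.7% beside 24.4% of all genes tested.

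The ratio of related enzymes within a sample does not depend on the scaling between samples. Over 10 pairs, the difference in the log2 ratio between the groups gave exact permutation p-values of 0.1 to 0.8 (two-sided, n = 3 each, where 0.1 is the smallest possible), or 0.667 to 0.8 after Benjamini-Hochberg adjustment. The ratio of PGM2 to PGM1 was 2.81 to 3.95 in negative control samples and 4.19 to 6.62 in inhibitor samples, and the groups did not overlap. Its log2 ratio was 1.74 ± 0.25 in control samples and 2.28 ± 0.37 with the inhibitor (SD, n = 3 each), a difference of 0.55 with an exact permutation p of 0.1 and an adjusted p of 0.667. In every inhibitor sample PGM2 was above, and PGM1 below, all control values. The ratios could therefore not overlap, and the exact permutation p of 0.1 was fixed by those values. The ratio of SLC16A3 to SLC16A1 differed by 0.70 (exact p 0.3) and that of ENO2 to ENO1 by -0.53 (exact p 0.2), with groups that overlapped.

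**Figure D3:**
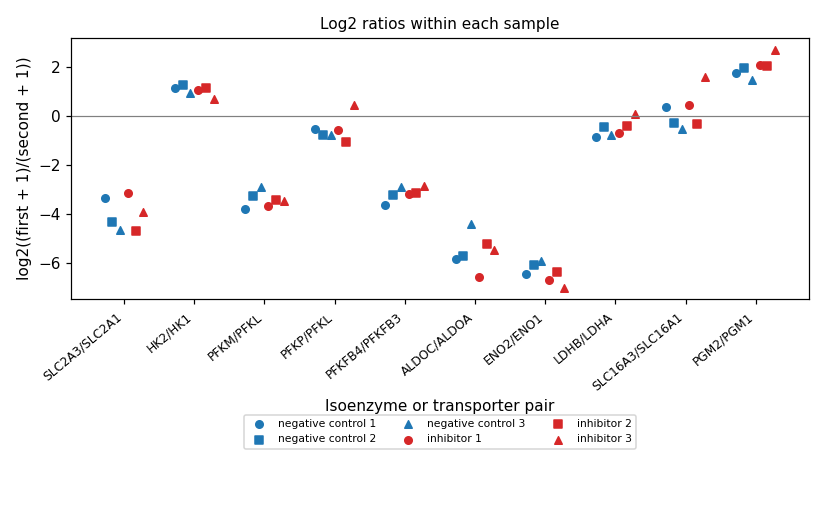
Log2 ratio of each of 10 isoenzyme or transporter pairs within each sample, as log2((first + 1)/(second + 1)), with negative control samples in blue and inhibitor samples in red. For PGM2/PGM1 the control samples (1.48 to 1.97) lie below the inhibitor samples (2.06 to 2.72), and for PFKP/PFKL, LDHB/LDHA and SLC16A3/SLC16A1 inhibitor sample 3 is the highest of the 6.

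Inhibitor sample 3 held more of the departures than any other sample. Of the 34 genes, 5 departed there by over 2-fold from the other samples' median, TIGAR, FBP1, RPE and LDHA lower and SLC2A3 at 2.20 times, which is 14.7% beside 16% of all genes tested. SLC2A3 did so in every other sample too, and PGK1 in negative control 3. These 1 or 2 genes stood beside 2.09%, 2.04% and 4.16% of all genes in negative control samples 1, 2 and 3, and 3.4% and 2.41% in inhibitor samples 1 and 2. The median deviation of the 34 genes from the control mean was -0.20 in inhibitor sample 3 and between -0.02 and 0.09 in the other samples, on the log2 scale. Over all genes tested it was -0.00 in inhibitor sample 3. By role, the median deviation in inhibitor sample 3 was 0.65 for glucose uptake (2 genes), 0.13 for lower glycolysis and -0.22 for upper glycolysis. It was -0.28 for the pentose phosphate genes and -0.41 for the regulators of phosphofructokinase. For the lactate genes it was -0.52, and for the glycogen and reverse enzymes (3 genes) -0.60. The glucose uptake median was also high in negative control 1 (0.51) and inhibitor sample 1 (0.56). It was -0.28, -0.24 and -0.44 in negative control 2, negative control 3 and inhibitor sample 2. TXNIP, an inhibitor of glucose uptake, was 30069.9 in inhibitor sample 3 and 2658 to 3373 in the other samples. ARRDC4, its relative, was 1159 against 475 to 549, and the mesenchymal marker VIM was 32.2 against at most 11.5. The other mesenchymal marker present, COL1A1, was not raised there, at 251 against 247 to 338. The part of these in the values of the 34 genes was not tested.

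**Figure D4:**
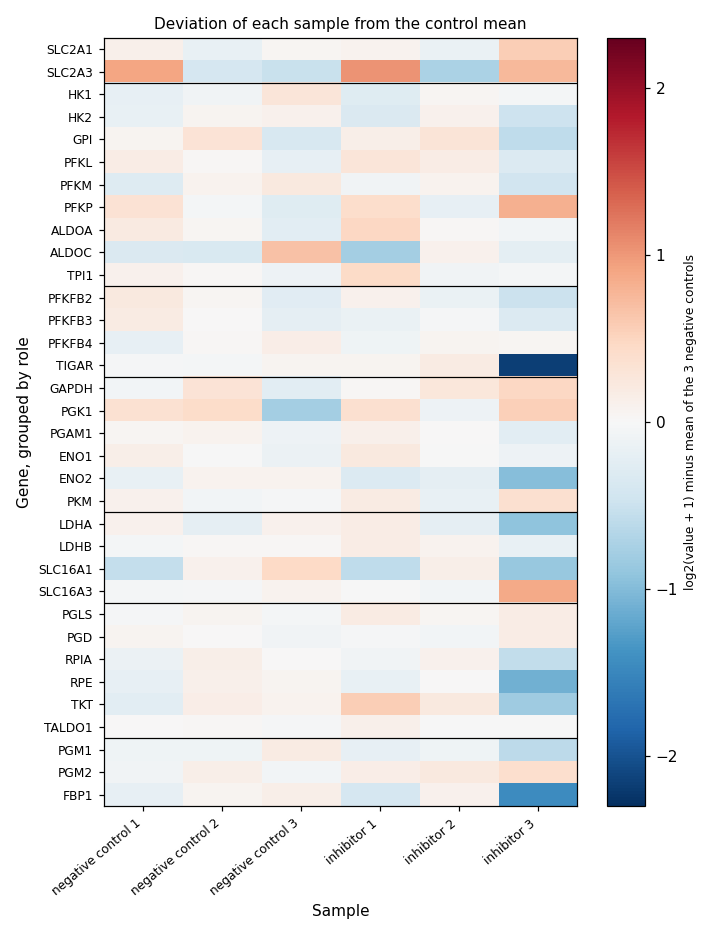
Deviation of each sample from the mean of the 3 negative control samples for the 34 genes, in log2(value + 1), coloured from blue (lower) to red (higher), with lines between role groups. The strongest colours are in the column of inhibitor sample 3, where TIGAR, FBP1 and RPE are lowest and SLC16A3, PFKP and SLC2A3 are among the highest, and in the row of SLC2A3.

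The count of genes at an unadjusted limma p under 0.05 moved with 1 library. Without inhibitor sample 2, 5 of the 34 reached an unadjusted limma p under 0.05, beside 10.7% of all genes, and 0 passed after adjustment, with an adjusted p of 0.468 at the smallest. They were FBP1 (log2 difference -0.91), SLC16A1 (-0.72), ENO2 (-0.64), HK2 (-0.40) and PFKP (0.61). Leaving out any other single sample gave 0 of the 34 at that threshold. The share of all genes was then 0.99%, 0.495% and 0.338% without negative control 1, 2 and 3, and 0.747% and 1.41% without inhibitor samples 1 and 3.

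The spread between samples was also set against the experiment number. The median SD of log2 values over the 6 samples was 0.255 for the 34 genes and 0.259 for all genes tested. It was 0.228 for the 10272 genes tested that were at least as high as the lowest of the 34. In 23 of the 34 the highest sample was less than 2 times the lowest. A limma F test of the experiment number, added after the data were seen, gave 0 genes of 12723 at an adjusted p of 0.05 and 620 (4.87%) at an unadjusted p under 0.05. Among them were 2 of the 34, GPI (p 0.0182) and SLC2A3 (p 0.0328), both with a limma adjusted p of 0.782.

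Other genes of the pathway, from a list of 43 of which 31 were in the table and 28 were tested, gave 17 higher and 11 lower with a median log2 difference of 0.07, and 0 passed the limma test. DERA, deoxyribose-phosphate aldolase, was the only one at an unadjusted p under 0.05. DERA was 469, 419.8 and 311 in control and 550.3, 478 and 572 in inhibitor samples, and its values did not overlap. Its log2 difference was 0.43 ± 0.18 (SE), with an unadjusted limma p of 0.0487 and an adjusted p of 0.899. SLC16A4, a further monocarboxylate transporter, did not overlap either but lay under the minimum for testing, at 6.56, 18.2 and 10.3 in control and 6.19, 5.06 and 4.15 in inhibitor samples. Of 13 regulators of glycolysis, 12 were tested, 6 were higher and 6 lower, and 0 passed.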

How the data were processed

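Messenger RNA of 3 negative control and 3 miR-451a inhibitor samples of OE19 cells was analysed from 1 table. From the methods of the study and the submitters' processing notes, the authors prepared stranded libraries, used cutadapt 1.8 for trimming, FastQC 0.11.8 for quality and STAR 2.7.0f for alignment to GRCh38, and normalised the gene counts with EDASeq for length and GC content within samples and with DESeq2 between samples. For the counting tool and the annotation version the sources used here give nothing. The values the authors deposited are a normalised signal per gene, not raw counts. Divided by its smallest value above 0, each column gave 100% whole numbers (within 1e-06). These are adjusted counts and not reads, so depth is known only after that adjustment, and values at the top of a sample are often shared between genes.

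Genes whose mean value reached 10 entered the tests as log2(value + 1), with limma 3.58.1 in R 4.3.3 (eBayes with trend, two-sided, Benjamini-Hochberg over all genes tested, threshold 0.05). Fold changes on this scale understate those of low genes. Isoenzyme ratios were tested by exact permutation with SciPy 1.17.1. The study names the Mann-Whitney test, whose smallest two-sided exact p is 0.1 here. DESeq2 1.42.0 and edgeR 4.0.16 on the recovered whole numbers, TMM rescaling, other pseudocounts and filters, sample weights, no trend, rank positions, a replicate block and each sample left out were alternatives.

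The 34 genes and the other lists were chosen with earlier results of these data known. Values in every sample are given for genes whose groups did not overlap, the 6 with the smallest unadjusted p, the 4 with the highest mean and those with a highest sample at least 3 times the lowest, with other genes by range or, where a sample stood apart, also by sample. The table's column names and the series design number the independent experiments, and the number was read as a pairing. Deviations from the group means correlated between samples of the same number at 0.21, 0.15 and -0.00 across all genes, and 0.46, 0.25 and -0.25 across the 34. Between samples of different numbers they ranged from -0.38 to 0.23 across all genes and from -0.77 to 0.58 across the 34. In both sets negative control 3 with inhibitor sample 2 was the highest, above every pair of the same number. These correlations therefore do not bear out the pairing. Coordinates (GRCh38) and promoters came from RefSeq by symbol, and pseudogene symbols from a reference list of gene names.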

Additional observations from a re-analysis of the deposited data

How the results depend on the processing

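No gene of the 34, and no gene of the table, passed an adjusted p of 0.05 under any of the alternatives run, and with 3 samples a group the exact Mann-Whitney test cannot go below 0.1. With the replicate block, which treats the experiment numbers as a pairing, 0 of the 34 were called, 17 were higher, the smallest adjusted p was 0.848 and 128 genes of the table had an unadjusted p under 0.05, so the block changed no call. The count of genes of the table at an unadjusted limma p under 0.05 (119) was 76 with a mean value of at least 50, 315 with sample weights, 181 without trend and 249 with DESeq2, and 43 to 1360 with 1 sample left out. Of the 34, 17 were higher in the main comparison and 11 to 19 with 1 sample left out, the 11 without inhibitor sample 1. Of 578 differences recomputed, 41 turned direction, in 21 of the 34 genes, and 13 genes held theirs throughout. The cause was not tested. The turned log2 differences were PFKFB4 -0.011, GAPDH -0.011, PGK1 -0.078, PGAM1 0.0019, LDHA 0.0501, PGD -0.042 and TKT 0.27 with sample weights, ENO1 -0.074, LDHB -0.063, PGD -0.028 and TALDO1 -0.012 on rank positions, and TKT 0.091 with DESeq2 and 0.0865 with edgeR. With 1 sample left out, the log2 differences that turned ranged from -0.035 to 0.32 (SLC2A1), -0.20 to 0.038 (HK1), -0.23 to 0.22 (GPI), -0.069 to 0.22 (PFKL), -0.29 to 0.0045 (PFKM), -0.017 to 0.26 (ALDOA), -0.50 to 0.038 (ALDOC), -0.066 to 0.20 (TPI1), -0.083 to 0.089 (PFKFB4), -1.05 to 0.13 (TIGAR), -0.12 to 0.48 (PGK1), -0.12 to 0.0597 (PGAM1), -0.066 to 0.11 (ENO1), -0.045 to 0.13 (LDHB), -0.028 to 0.43 (SLC16A3), -0.045 to 0.073 (PGD), -0.32 to 0.011 (RPIA), -0.30 to 0.40 (TKT) and -0.0095 to 0.056 (TALDO1). For log2 ratios the ranges were -0.20 to 0.58 (SLC2A3/SLC2A1), -0.24 to 0.0024 (HK2/HK1), -0.42 to 0.017 (PFKM/PFKL), -0.12 to 0.63 (PFKP/PFKL), -0.015 to 0.35 (PFKFB4/PFKFB3) and -0.71 to 0.014 (ALDOC/ALDOA).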
